A study of Mus musculus with 17 samples.

Results

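Neuropeptide genes of the mouse spinal cord were followed in naïve cord and in cord with targeted EAE. The genes were Penk, Pdyn, Sst, Tac1, Cck, Nts, Grp, Npy, Gal and Vip, chosen by symbol, with every probe set annotated to 1 of them alone. They were 10 of 18194 genes and held 11 of the 34958 probe sets with a single gene, since Tac1 has more than one. Total RNA came from female C57BL/6 mice, labelled as 8 weeks old, with 1 array per sample. No source used here says that samples of a group came from separate mice, so that p-values measure the spread between samples, which are called mice below. The 6 naïve mice received no treatment. The other mice had targeted EAE, in which an animal immunized with a MOG peptide in adjuvant undergoes laminectomy at the mid-thoracic level and is given pertussis toxin, with TNF-α and IFN-γ injected into the cord to set where the lesion forms. Of these, 5 received an isotype control antibody (palivizumab, which binds a viral protein) and 6 the humanized anti-RGMa antibody, which binds repulsive guidance molecule-a, a membrane protein known for repelling axons. Both antibodies were given intravenously at 10 mg/kg from 9 DPI (days after the cytokine injection), and 4.5 mm of cord centred on the injection site was taken at 14 DPI. Every EAE mouse therefore also carried the immunization, surgery, cytokines, toxin and an antibody, and the parts of these in a difference from naïve cord cannot be told apart.

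Neuropeptides are cut from larger precursors by prohormone convertases, trimmed and often amidated, stored in dense-core vesicles and released to act mostly on G protein-coupled receptors. In the dorsal horn they mark classes of interneurons, and endings of sensory neurons, that carry or restrain pain, itch and touch. The messenger RNA lies mainly in cell bodies, and those of sensory neurons lie in the ganglia outside the cord. Fewer cells of a type and less RNA per cell cannot be told apart in tissue RNA.

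Several of these genes are textbook targets of the transcription factor CREB, which binds the cAMP response element TGACGTCA and its shorter core TGACG, which reads CGTCA on the other strand. Promoter windows of 300 bases, from 250 before to 50 after the annotated start, were taken from RefSeq on GRCm38.p6. A window was used for 8 of the 10 genes. None was held for Penk, and that of Grp, a gene lower in EAE cord, was left out by its chromosome. The search made before that step listed no core for Grp. The core was present, on either strand, in 6 of the 8, Cck, Gal, Nts, Sst, Tac1 and Vip, and in no window of Npy or Pdyn. Among all 32851 windows of this length 20.8% held the core and 1.79% the full element. The windows below are those of 4 genes with the core whose signal was lower in EAE cord, and of Tac1, which has the core and whose signal did not pass the test. They are given 5′ to 3′ on the strand of the gene, with the core (for Sst the full element, in which the core on each strand overlaps the other) in capitals. The windows lie at chr16:23890795-23891094 on the minus strand for Sst, chr9:121495645-121495944 on the minus strand for Cck, chr10:102490369-102490668 on the minus strand for Nts, chr10:5638968-5639267 on the plus strand for Vip and chr6:7554811-7555110 on the plus strand for Tac1.
Sst: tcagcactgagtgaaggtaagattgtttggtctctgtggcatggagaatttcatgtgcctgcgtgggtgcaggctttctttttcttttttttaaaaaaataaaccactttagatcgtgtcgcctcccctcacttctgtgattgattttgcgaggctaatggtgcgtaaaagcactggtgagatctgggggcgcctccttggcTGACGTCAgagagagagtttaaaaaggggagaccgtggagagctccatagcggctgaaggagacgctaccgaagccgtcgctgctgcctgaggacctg
Cck: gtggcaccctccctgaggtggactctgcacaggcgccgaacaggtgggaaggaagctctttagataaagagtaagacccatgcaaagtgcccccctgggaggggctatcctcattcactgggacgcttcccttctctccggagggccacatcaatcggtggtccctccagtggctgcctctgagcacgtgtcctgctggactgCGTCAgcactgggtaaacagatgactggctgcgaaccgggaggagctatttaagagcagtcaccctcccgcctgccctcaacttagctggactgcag
Nts: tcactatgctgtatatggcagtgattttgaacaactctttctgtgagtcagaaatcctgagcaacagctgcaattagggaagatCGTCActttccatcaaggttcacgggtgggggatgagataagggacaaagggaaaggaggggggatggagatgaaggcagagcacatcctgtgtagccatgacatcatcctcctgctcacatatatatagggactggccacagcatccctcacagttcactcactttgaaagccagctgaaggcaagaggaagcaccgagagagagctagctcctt
Vip: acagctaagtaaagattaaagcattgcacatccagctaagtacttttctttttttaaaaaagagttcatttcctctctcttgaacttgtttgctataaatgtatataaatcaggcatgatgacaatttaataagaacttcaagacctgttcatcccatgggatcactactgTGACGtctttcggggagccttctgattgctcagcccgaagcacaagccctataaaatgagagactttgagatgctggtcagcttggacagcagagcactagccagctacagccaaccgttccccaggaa
Tac1: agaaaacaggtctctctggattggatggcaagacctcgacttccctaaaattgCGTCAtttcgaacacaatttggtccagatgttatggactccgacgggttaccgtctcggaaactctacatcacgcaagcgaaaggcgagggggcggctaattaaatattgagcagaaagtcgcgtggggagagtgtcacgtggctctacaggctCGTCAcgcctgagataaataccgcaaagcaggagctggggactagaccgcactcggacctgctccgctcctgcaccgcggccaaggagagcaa
Counted from the start site, the first base of the core lay at -48 in Sst, -47 in Cck, -166 in Nts and -79 in Vip, and at -197 and -43 in Tac1. Genes with the core were thus found both among those that were lower in EAE cord and among those that were not. A match of letters is a description of the window, and binding was not measured.

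Signals are MAS5.0 signals on a log2 scale, and differences are log2 fold changes. Groups were compared with limma in 1 fit over all arrays and all 34958 probe sets, and a gene was called changed at a Benjamini-Hochberg adjusted p under 0.05. The table has no detection calls, so a background level was taken from 43 probe sets of olfactory receptor genes, whose 95th percentile of mean signal was 5.70. The leading probe set of each gene, the one with the highest mean over the 17 arrays, averaged between 7.16 and 11.61 and lay above that level in all 10 genes. The remaining probe set of Tac1 averaged below it. Levels of different probe sets were not compared with each other.

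The tissue around the lesion differed between the groups beyond the peptides. The mean log2 signal of 17 neuron markers ran from 12.65 to 12.76 in naïve mice, from 11.27 to 12.03 in isotype control mice and from 11.51 to 12.41 in anti-RGMa mice. Of these markers 16 fell in the isotype control group against naïve (median log2 fold change -1.01) and 11 in the anti-RGMa group (-0.58). The mean of 10 macrophage markers ran from 7.50 to 8.03, from 11.06 to 12.07 and from 10.95 to 12.01, and all 10 rose in each EAE group. The mean of 5 markers of sensory ganglion neurons was 8.80 in anti-RGMa replicate 1, 7.33 in anti-RGMa replicate 6 and 6.22 in naïve replicate 5, and between 4.02 and 4.81 in the other 14 arrays. The mean of 9 skeletal muscle markers was 9.28, 13.16 and 9.43 in isotype control replicates 3, 4 and 5 and at most 8.16 elsewhere. Values without these arrays are given where leaving one out changed a call or a sign.

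Neuropeptide signals were lower in EAE cord for most of the genes, but not for all. In isotype control mice 7 of the 10, Cck, Sst, Grp, Nts, Vip, Npy and Penk, fell against naïve mice, 0 rose and 3, Gal, Tac1 and Pdyn, did not pass the test. The same 7 were those in which no isotype control array reached the lowest naïve array. Over all 18194 genes 26.6% fell and 24.2% rose in this comparison, and 20.4% were lower without overlap. The median log2 fold change of the 10 was -1.27 (41.4% of the naïve signal), against -0.04 over all genes. In anti-RGMa mice 6 of the 10 fell against naïve mice, Cck, Grp, Sst, Npy, Nts and Penk, and 0 rose, where 20.8% of all genes fell and 19.8% rose. Without overlap were 4, Cck, Grp, Sst and Nts, where 13.8% of all genes were lower without overlap. Both comparisons share the naïve arrays. The genes and the gene lists used here were also chosen with earlier results of these data known, so counts set against all genes are descriptions. With any 1 array left out, the 7 calls in isotype control mice held (adjusted p up to 0.00839, for Vip), and in anti-RGMa mice all but Penk held (up to 0.0145, for Sst). Quantile scaling and centring on the array median kept the 7 calls too.

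**Figure D1:**
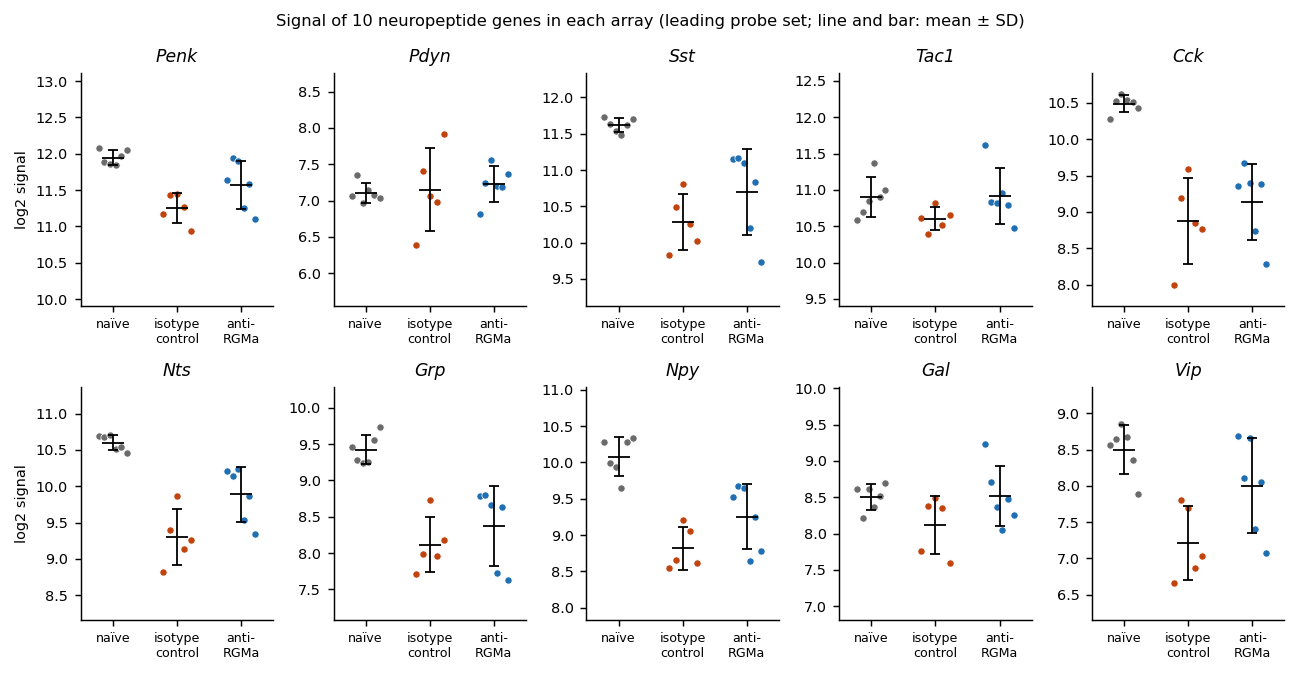
Log2 signal of the leading probe set of each neuropeptide gene (vertical axis) in naïve (n = 6), isotype control (n = 5) and anti-RGMa (n = 6) mice, with 1 point per array, the line at the mean and the bar at ± 1 SD. Each panel spans the same number of log2 units. The isotype control points lie below every naïve point for Penk, Sst, Cck, Nts, Grp, Npy and Vip and overlap them for Pdyn, Tac1 and Gal.

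Of the opioid peptide genes Penk fell and Pdyn did not pass the test. Penk encodes proenkephalin, the precursor of the enkephalins, which act on δ and μ opioid receptors and are made by many dorsal horn interneurons. Its log2 signal in naïve mice ran from 11.85 to 12.07 (median 11.93). The isotype control mice had 11.17, 11.43, 11.44, 11.27 and 10.94, all below the lowest naïve mouse. The anti-RGMa mice ran from 11.11 to 11.94 (median 11.61) and overlapped both other groups. The log2 fold change was -0.70 in isotype control against naïve mice (SE 0.14, adjusted p = 0.000842), or 61.7% of the naïve signal. Anti-RGMa against naïve mice had -0.38 (SE 0.14, adjusted p = 0.0404). That call was lost in 9 of the 17 fits that left out 1 array (naïve replicates 1, 2, 3, 5 and 6 and anti-RGMa replicates 1, 4, 5 and 6, with an adjusted p of up to 0.0946), with quantile normalization (0.0712) and in a fit of these groups alone (0.0562).

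Pdyn encodes prodynorphin, whose dynorphins act on the κ opioid receptor. Its naïve arrays ran from 6.96 to 7.36 (median 7.07). Isotype control mice had 6.38, 7.40, 7.06, 6.98 and 7.92, so that this group held both the lowest and the highest Pdyn signal of all 17 arrays. The anti-RGMa arrays ran from 6.81 to 7.55 (median 7.22) and overlapped both groups. The log2 fold change against naïve mice was 0.04 (95% interval -0.39 to 0.48, adjusted p = 0.890) in isotype control and 0.12 (-0.29 to 0.53, adjusted p = 0.677) in anti-RGMa mice. Its sign in isotype control turned with the scaling and with single arrays, and the interval covers both a modest fall and a modest rise.

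Sst, Cck, Nts and Grp, peptides of excitatory dorsal horn interneurons, fell together in both EAE groups. Sst encodes somatostatin, whose neurons relay mechanical pain. Its naïve arrays ran from 11.48 to 11.73 (median 11.62). In isotype control mice the signals were 9.83, 10.50, 10.81, 10.25 and 10.02, and those of anti-RGMa mice ran from 9.73 to 11.16 (median 10.97). No EAE array reached the lowest naïve array, and the lowest anti-RGMa array, replicate 6, lay below all isotype control arrays. For Sst the log2 fold change was -1.33 (SE 0.24, adjusted p = 0.000305) in isotype control and -0.92 (SE 0.23, adjusted p = 0.00539) in anti-RGMa mice.

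Cck, which encodes cholecystokinin, a peptide that opposes opioid analgesia, had the largest fall of the 10 genes against naïve mice in each EAE group. Its naïve arrays ran from 10.28 to 10.63 (median 10.52). In the isotype control group the signals were 7.99, 9.20, 9.59, 8.84 and 8.77, and those of anti-RGMa mice ran from 8.29 to 9.67 (median 9.37). The EAE groups overlapped each other almost fully, and neither reached the naïve range. Against naïve mice the log2 fold change was -1.61 (SE 0.26, adjusted p = 0.000124), or 32.8% of the naïve signal, in isotype control mice. It was -1.35 (SE 0.25, adjusted p = 0.000660), or 39.2%, in anti-RGMa mice.

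Nts encodes neurotensin, a peptide of superficial dorsal horn neurons that lowers pain responses. Its naïve arrays ran from 10.46 to 10.71 (median 10.61). Isotype control signals were 8.82, 9.40, 9.87, 9.14 and 9.26, and those of anti-RGMa mice ran from 9.34 to 10.24 (median 10.01). All EAE arrays were below the naïve range, and 3 of the 6 anti-RGMa arrays were above every isotype control array. The log2 fold change against naïve mice was -1.30 (SE 0.19, adjusted p = 3.95e-05) in isotype control and -0.71 (SE 0.18, adjusted p = 0.00499) in anti-RGMa mice.

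Grp encodes gastrin-releasing peptide, which carries itch in the dorsal horn. In naïve mice it ran from 9.24 to 9.74 (median 9.37). The isotype control arrays had 7.71, 7.99, 8.73, 7.96 and 8.18, and those of anti-RGMa mice ran from 7.63 to 8.81 (median 8.65). Again no EAE array reached the naïve range. Grp changed by -1.31 (SE 0.24, adjusted p = 0.000276) in isotype control and -1.05 (SE 0.23, adjusted p = 0.00185) in anti-RGMa mice.

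Tac1, the precursor gene of substance P and neurokinin A, is used by nociceptive sensory neurons and by excitatory dorsal horn neurons. It did not pass the test, unlike the 4 genes above. The naïve arrays of its leading probe set ran from 10.58 to 11.37 (median 10.88). The isotype control arrays had 10.62, 10.40, 10.82, 10.52 and 10.65, and those of anti-RGMa mice ran from 10.47 to 11.62 (median 10.83). All 5 isotype control arrays lay below the naïve mean, but within or just under the naïve range. The log2 fold change was -0.30 (95% interval -0.67 to 0.07, adjusted p = 0.176) in isotype control and 0.01 (-0.34 to 0.37, adjusted p = 0.961) in anti-RGMa mice. The highest signal of all 17 arrays, 11.62, came from anti-RGMa replicate 1, the array with the highest sensory ganglion marker mean, and without that array the anti-RGMa value was -0.13 (adjusted p = 0.504). Replicate 6 of that group, with the next highest ganglion marker mean, had the lowest Tac1 signal of the group, 10.47. The part of ganglion tissue in these signals was not tested. The dim probe set of Tac1, with a mean of 5.12 in naïve, 4.32 in isotype control and 4.54 in anti-RGMa mice, near the background level, had -0.80 (SE 0.58, adjusted p = 0.285) in isotype control mice.

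Npy and Gal, peptides of dorsal horn inhibitory neurons among others, differed from each other. Npy encodes neuropeptide Y, whose spinal neurons restrain itch evoked by light touch. Naïve mice ran from 9.65 to 10.33 (median 10.13). Signals of 8.54, 8.66, 9.20, 9.06 and 8.62 were found in isotype control mice, all below the naïve range. Those of anti-RGMa mice ran from 8.64 to 9.68 (median 9.39), and the highest of them just passed the lowest naïve array. Npy changed by -1.26 (SE 0.21, adjusted p = 0.000127) in isotype control and -0.82 (SE 0.20, adjusted p = 0.00386) in anti-RGMa mice.

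Gal encodes galanin, which is also known to be induced in sensory and motor neurons after axon injury. Its naïve arrays ran from 8.22 to 8.70 (median 8.56). The isotype control arrays had 7.76, 8.38, 8.49, 8.36 and 7.60, so that replicates 1 and 5 lay below the naïve range and the other 3 within it. Those 2 arrays also had the lowest neuron marker means of the group, 11.27 and 11.34. The anti-RGMa arrays ran from 8.04 to 9.23 (median 8.42), with the highest, replicate 1, above all naïve arrays. Gal had a log2 fold change of -0.38 (95% interval -0.82 to 0.05, adjusted p = 0.140) in isotype control and 0.01 (-0.41 to 0.42, adjusted p = 0.977) in anti-RGMa mice, where it was -0.13 without replicate 1.

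Vip, the gene of vasoactive intestinal peptide, which relaxes vessels and is used by some sensory and autonomic neurons, fell in isotype control mice. Naïve signals ran from 7.89 to 8.85 (median 8.61). The isotype control arrays had 6.67, 7.81, 7.70, 6.87 and 7.04, all below the naïve range, though replicates 2 and 3 were only just below it. Those of anti-RGMa mice ran from 7.07 to 8.69 (median 8.08) and overlapped both groups, with replicates 4 and 6 below the naïve range. Vip changed by -1.28 (SE 0.30, adjusted p = 0.00227) in isotype control and -0.50 (SE 0.29, adjusted p = 0.195) in anti-RGMa mice.

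Within each EAE group a single array was the lowest for most of the genes, and in the isotype control group another was the highest for most. Isotype control replicate 1 was the lowest of its group for 7 of the 10 genes (Pdyn, Npy, Sst, Cck, Nts, Grp and Vip) and replicate 3 the highest for 8 (Tac1, Penk, Npy, Sst, Cck, Nts, Grp and Gal). Anti-RGMa replicate 6 was the lowest of its group for 7 (Tac1, Penk, Sst, Cck, Nts, Grp and Vip), and it was also the array with the lowest neuron mean and the highest macrophage mean of that group. The highest values of that group were spread over replicate 2 (5 genes), replicate 1 (3) and replicate 3 (2).

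The genes did not all fall alike. The difference between the log2 fold changes of 2 genes in isotype control against naïve mice was tested for all 45 pairs by an exact permutation test over the 462 splits of the 11 arrays, two-sided, with p adjusted over the pairs, and 25 pairs had an adjusted p under 0.05. All 18 pairs of Cck, Sst, Grp, Nts, Vip or Npy with Gal, Tac1 or Pdyn were among them. Within those 6 genes 1 of 15 pairs was, Cck against Nts, which differed by -0.31 (exact permutation adjusted p = 0.0468). Penk stood between, with a fall smaller than 5 of the 6 (all but Vip, adjusted p = 0.0830) and different from Pdyn, by -0.74 (0.0177), but not past the threshold against Gal (-0.31, 0.0524) or Tac1 (-0.40, 0.0974). In the order of the fold changes, Cck, Sst, Grp, Nts, Vip, Npy, Penk, Gal, Tac1 and Pdyn, the only neighbours past the threshold were Npy and Penk (0.57, exact permutation adjusted p = 0.0103). These groups of genes were formed after the fold changes had been seen. The 18 pairs set genes called lower against genes not called in the same arrays, so their count is no independent result. Pairs of other genes were not tested, so no share over all pairs stands beside these counts.

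**Figure D2:**
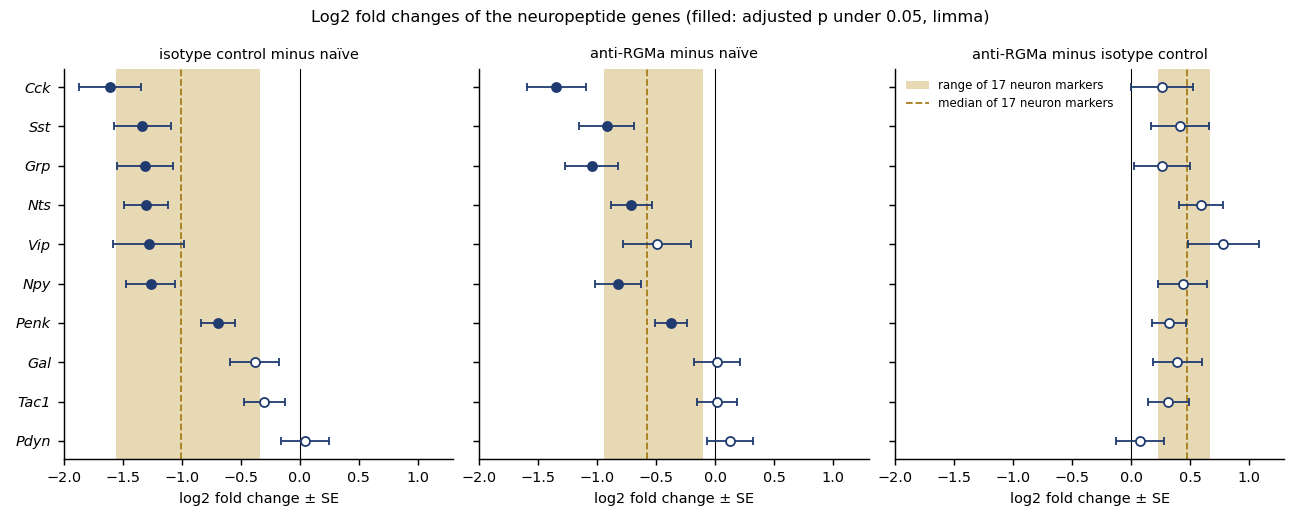
Log2 fold change ± SE (horizontal axis) of the leading probe set of each neuropeptide gene in the 3 comparisons, filled where the adjusted p from limma was under 0.05. The shaded band is the range and the dashed line the median of 17 neuron markers in the same comparison (-1.01, -0.58 and 0.47). In isotype control against naïve mice Cck lies below the band, Sst, Grp, Nts, Vip, Npy, Penk and Gal within it and Tac1 and Pdyn above it.

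Neuron markers fell along with the peptide genes, and the peptide signals were also set against them. When the neuron marker mean of each array was subtracted from the log2 signals, 1.58% of all probe sets were lower and 67.4% higher in isotype control than in naïve mice, and the median of all probe sets moved to 0.96. Of the 10 peptide genes only Cck was then lower (-0.58, SE 0.17, adjusted p = 0.00580). Sst (-0.31, adjusted p = 0.0719), Grp (-0.28, 0.184), Nts (-0.28, 0.0941), Vip (-0.25, 0.328) and Npy (-0.24, 0.248) did not pass the test from limma. Pdyn (1.07, adjusted p = 0.00228), Tac1 (0.73, 0.00476), Gal (0.64, 0.00244) and Penk (0.33, 0.0271) were higher relative to the neuron markers, 4 of 10 where 67.4% of probe sets were, so that Penk turned from lower to higher on this scale. In anti-RGMa against naïve mice 2.1% of probe sets were lower and 38.4% higher on this scale. Cck (-0.78, adjusted p = 0.00164) and Grp (-0.48, 0.0408) were lower there, and Pdyn (0.69, 0.0417), Tac1 (0.58, 0.0255) and Gal (0.58, 0.00883) were higher.

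Among the 11 EAE arrays the peptide signals also ran with the neuron marker mean. The neuron means were 11.27, 12.03, 11.98, 11.77 and 11.34 in isotype control mice and ran from 11.51 to 12.41 in anti-RGMa mice. Pearson's r was 0.90 for Sst (Spearman's rho 0.91), 0.88 for Vip (0.92), 0.88 for Nts (0.88), 0.87 for Penk (0.90) and 0.84 for Cck (0.75). It was 0.80 for Gal (0.78), 0.78 for Npy (0.85), 0.70 for Grp (0.75), 0.57 for Tac1 (0.69) and 0.03 for Pdyn (0.05). The adjusted permutation p for r (100000 resamples, two-sided, over 10 genes) was 0.0012 for Sst, Vip, Nts and Penk, 0.0032 for Cck and Gal, 0.00931 for Npy, 0.0267 for Grp, 0.0611 for Tac1 and 0.923 for Pdyn, and for rho it was 0.0253 in Tac1 and 0.882 in Pdyn and between 0.0012 and 0.0140 in the other 8. The call of Grp was lost without isotype control replicate 1 or without anti-RGMa replicate 1, 2 or 6, where r ran down to 0.64. Without isotype control replicates 1 and 5, the 2 arrays farthest from the median neuron mean, r was 0.55 for Gal, 0.66 for Tac1, -0.11 for Pdyn and between 0.67 and 0.90 for the other 7. With each array centred on its group mean r was 0.89 for Sst, 0.88 for Cck, 0.82 for Penk, 0.40 for Tac1, -0.03 for Pdyn and between 0.68 and 0.81 for the other 5. The points share array and dissection, and the macrophage marker mean was highest, at 11.97 to 12.07, in the 3 arrays with the lowest neuron means, isotype control replicates 1 and 5 and anti-RGMa replicate 6. Its part in the relation was not tested. The same correlation is not given for all genes, so it is not shown to be particular to the peptide genes.

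**Figure D3:**
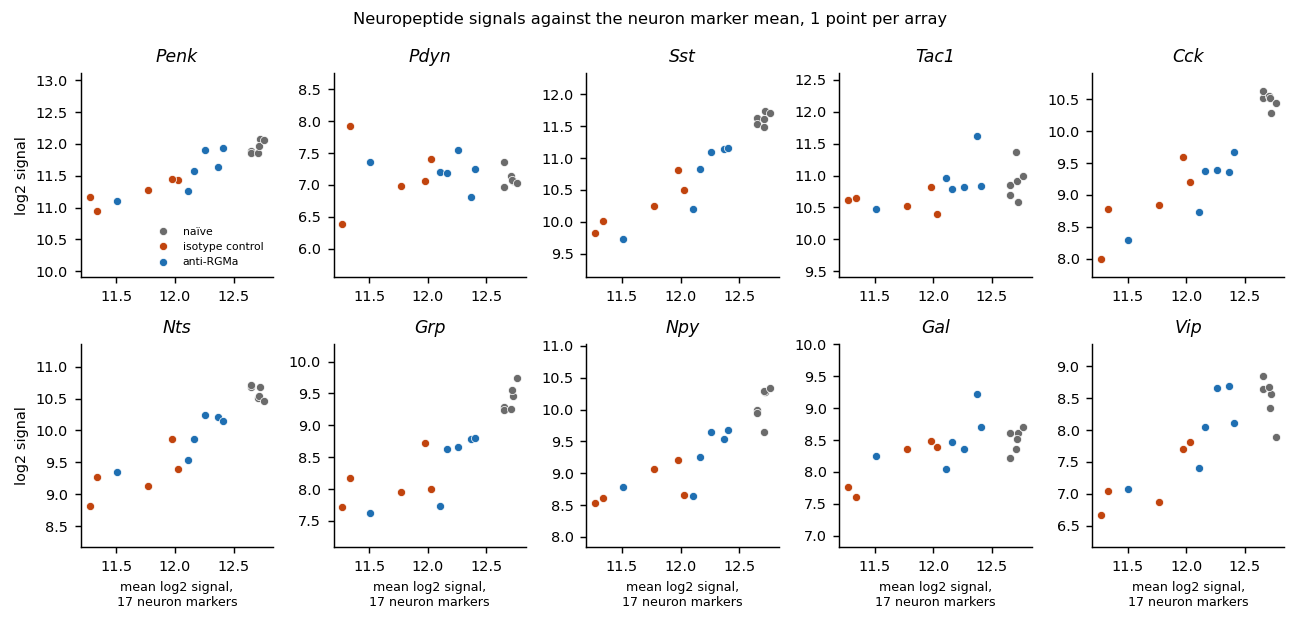
Log2 signal of each neuropeptide gene (vertical axis) against the mean log2 signal of 17 neuron markers in the same array (horizontal axis), with 1 point per array coloured by group. Naïve arrays form a cluster between 12.65 and 12.76 on the horizontal axis. The EAE arrays form a rising band for Sst, Nts, Penk and Vip (r of 0.87 to 0.90 over 11 arrays) and none for Pdyn (r = 0.03).

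The question of the antibody groups is whether peptide signals differed with anti-RGMa treatment. All 10 genes had a higher mean in anti-RGMa than in isotype control mice, where 8751 of all 18194 genes and 0 of the 17 neuron markers had a lower one. The median log2 fold change of the 10 was 0.36, against 0.01 over all genes. Of the 10, 0 passed the adjusted p from limma, nor did any gene of the 18194 (0% higher). At an unadjusted p under 0.05 were 3 of the 10, Nts, Vip and Penk, and 2725 of the 18194 genes. Under the threshold of the study, a fold change above 1.5 with an unadjusted p under 0.05, Nts and Vip were higher and 0 of the 10 lower, where 1.23% of all genes were higher and 2.73% lower. Nts passed it narrowly, at a fold of 1.51. The count of 2 was 0 without isotype control replicate 1 and 3 without anti-RGMa replicate 6. It was 1 when anti-RGMa replicate 1, 2 or 3 was left out, and likewise for replicates 4 and 5 of the isotype control group.

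Vip had the largest value, 0.78 (95% interval 0.14 to 1.42, limma adjusted p = 0.311, unadjusted p = 0.0197), and 5 of 6 anti-RGMa mice lay above the isotype control mean. Nts had 0.59 (95% interval 0.20 to 0.99, limma adjusted p = 0.276, unadjusted p = 0.00594), and 6 of 6 lay above that mean, though the groups overlapped. Penk had 0.32 (95% interval 0.01 to 0.62, unadjusted p = 0.0421, adjusted 0.359). The highest anti-RGMa signal of Vip, 8.69, came from replicate 1, the array with the highest sensory ganglion marker mean. Replicate 3, with a ganglion marker mean of 4.59, had 8.66. Replicate 6, with the next highest ganglion marker mean (7.33), had the lowest Vip signal of the group, 7.07. With 1 array left out the Vip value ran from 0.64 to 0.97. The part of ganglion tissue in it was not tested. For the others the limma intervals covered 0, and ran from -0.00 to 0.88 for Npy, -0.10 to 0.93 for Sst, -0.04 to 0.83 for Gal, -0.06 to 0.69 for Tac1, -0.24 to 0.76 for Grp, -0.30 to 0.82 for Cck and -0.36 to 0.51 for Pdyn. The neuron markers moved the same way, with a median of 0.47 over 17 genes, 13 of them at an unadjusted p under 0.05. Markers of other cells and tissue moved in both directions. Higher medians were those of astrocytes (0.26, 4 of 8 at an unadjusted p under 0.05), oligodendrocytes (0.23, 4 of 7) and sensory ganglion neurons (1.16, 1 of 5). Lower ones were those of macrophages (-0.21, 2 of 10), T cells (-0.16, 1 of 7) and Schwann cells (-0.59, 2 of 4). Those of fibroblasts and meninges had a median of -1.05 (6 of 8 at an unadjusted p under 0.05), with array means from 10.24 to 12.58 in isotype control and from 9.01 to 10.78 in anti-RGMa mice, and those of skeletal muscle a median of -1.95 (3 of 9). Their part in the peptide values was not tested. After subtraction of the neuron mean the peptide values lay between -0.38 (Pdyn) and 0.32 (Vip), 0 of 10 passed and 8 were below 0. The median of all probe sets moved to -0.45 on this scale, and all 10 peptide values lay above it.

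A single array weighed on this comparison. Without anti-RGMa replicate 6 the Nts value was 0.70 (adjusted p = 0.0403) and 1561 probe sets passed the adjusted p, where 0 did with all arrays. With that array and anti-RGMa replicate 1 both left out, a setting chosen after the data were seen, 12 probe sets passed and Nts did not (adjusted p = 0.0893).

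The receptors of these peptides were measured for 21 genes. In isotype control against naïve mice 10 fell and 1 rose, with a median log2 fold change of -0.70, where 26.6% of all genes fell and 24.2% rose. In anti-RGMa against naïve mice 7 fell and 0 rose, with a median of -0.53, where 20.8% and 19.8% of all genes did. Cckbr, the main cholecystokinin receptor of the nervous system, fell by 1.44 (naïve mean 8.69, isotype control 7.25, adjusted p = 5.01e-05), and Npy5r, a neuropeptide Y receptor, fell by 1.39 (9.03 and 7.64, adjusted p = 0.000232). Sstr3, a somatostatin receptor of neuronal cilia, fell too (-1.20, adjusted p = 0.000442), to an isotype control mean of 5.31, under the background level, as did Ntsr2, a neurotensin receptor that astrocytes also carry (-1.06, with means of 12.57 and 11.52, adjusted p = 0.000464). Oprk1, the κ opioid receptor that dynorphins act on, fell by 0.74 (adjusted p = 0.00191) although Pdyn did not pass. Npy2r (-0.70), Grpr (-0.67, to a mean of 5.52, also under that level), Npy1r (-0.53), Sort1 (-0.33) and Tacr1 (-1.01), the substance P receptor, were the other falls, the last with a naïve mean of 3.51 that was itself under it. The size of a change that ends under the background level is uncertain. Galr2, a galanin receptor, was the gene that rose (2.06, adjusted p = 0.0380), between means of 2.33 and 4.40 that both lay under that level, so its change rests on dim signals. The μ and δ opioid receptors on which enkephalins act, Oprm1 (-0.79, adjusted p = 0.221) and Oprd1 (-1.18, adjusted p = 0.179), spread widely, with isotype control means of 5.22 and 3.87 under the background level, and did not pass. Between the antibody groups 0 receptors passed the adjusted p and 3 of 21 an unadjusted p under 0.05 (Cckbr 0.56, Sstr3 0.64 and Sort1 0.28), a share near that of all genes (2725 of 18194).

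Most genes that process and store peptides fell too. Of 13 measured, 11 fell in isotype control against naïve mice (median -1.04, with 26.6% of all genes falling) and 8 in anti-RGMa against naïve mice (-0.59, with 20.8%), and 0 rose. Chga, Chgb and Scg2, granins of dense-core vesicles, changed by -1.54, -1.04 and -1.33. Pcsk1, a prohormone convertase, fell (-1.29, with means of 7.94 in naïve and 6.65 in isotype control mice, adjusted p = 6.66e-05), as did its inhibitor Pcsk1n (-1.04) and Scg5, a chaperone of a prohormone convertase (-1.41, adjusted p = 2.8e-05). Cadps, which primes dense-core vesicles for release, fell by 1.14. The falls of Qpct, which caps peptides with pyroglutamate (-0.60), Pam, which amidates them (-0.43), Cadps2 (-0.33) and Cpe, which trims the cut ends (-0.26), were smaller. Scg3 (-0.21, adjusted p = 0.121) and Vgf (-0.41, adjusted p = 0.0943) did not pass. Between the antibody groups 0 passed the adjusted p and 7 an unadjusted p under 0.05, Chga, Scg5, Scg2, Chgb, Pcsk1n, Cpe and Scg3, all higher in anti-RGMa mice. At that unadjusted p were also 2725 of all 18194 genes and 13 of the 17 neuron markers.

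**Figure D4:**
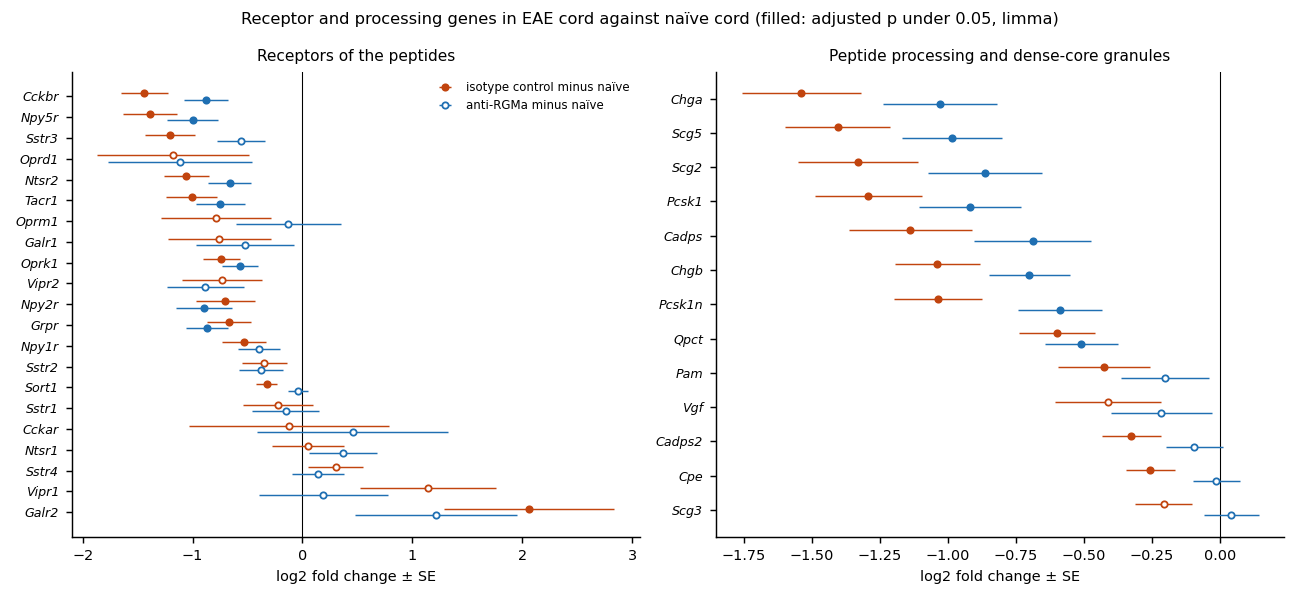
Log2 fold change ± SE against naïve mice (horizontal axis) of 21 receptor genes of the peptides and of 13 genes of peptide processing and dense-core granules, for isotype control (orange) and anti-RGMa (blue) mice, filled where the adjusted p from limma was under 0.05. In isotype control mice 10 receptors lie filled below 0 and 1, Galr2, above it, and 11 of the 13 processing genes lie filled below 0.

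Other neuropeptide genes of the cord were mixed. Of 12 measured, 7 fell and 2 rose in isotype control against naïve mice (median -0.62), where 26.6% of all genes fell and 24.2% rose. In anti-RGMa against naïve mice 4 fell and 1 rose (-0.35), where 20.8% and 19.8% of all genes did. Tac2, which encodes neurokinin B of dorsal horn neurons, fell by 1.39 (adjusted p = 2.44e-05), where Tac1 did not pass. Cartpt, a peptide precursor of autonomic and dorsal horn neurons, also fell (-1.32, adjusted p = 7.74e-05), as did Nmu, neuromedin U (-1.21, 5.45e-05), Calcb, a calcitonin gene-related peptide of motor and sensory neurons (-1.76, 0.00196), and Adcyap1, PACAP (-0.41, 0.0103). The 2 that rose, a smaller share than among all genes, were Crh (0.82, adjusted p = 0.0398) and Pomc (0.47, 0.0414), named after their values were seen. Between the antibody groups 0 passed the adjusted p and 6 an unadjusted p under 0.05, where 2725 of all 18194 genes did. The smallest of the 6 was that of Adcyap1 (0.52, unadjusted p = 0.000586 and adjusted p = 0.260 in limma). Adcyap1 ran from 8.43 to 9.02 in isotype control and from 9.02 to 9.63 in anti-RGMa mice. Calcb, also a gene of sensory ganglion neurons, had 1.33 (adjusted p = 0.274) and ran from 6.91 to 8.65 and from 8.26 to 10.62. The ganglion marker mean was raised in 2 of those 6 anti-RGMa arrays, and its part was not tested.

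Most markers of inhibitory, excitatory and motor neurons fell too. Of 4 inhibitory neuron markers 4 fell in isotype control against naïve mice (median -1.33). They were Gad1 (-1.19, adjusted p = 0.000210) and Gad2 (-1.18, 0.00205), which make GABA, Slc32a1, the vesicular transporter of GABA and glycine (-1.47, 0.00144), and Slc6a5, a glycine transporter (-1.51, 0.00226). Of 5 excitatory markers 4 fell (median -0.58), among them Cbln2, a synaptic organiser (-1.56, adjusted p = 6.89e-05), Slc17a6, the vesicular glutamate transporter of dorsal horn neurons (-1.37, 0.000269), and Tlx3, a transcription factor of excitatory dorsal horn neurons (-0.54, 0.00162). Motor neuron markers fell in 5 of 6 (median -1.53), among them Slc18a3, the vesicular acetylcholine transporter (-1.85, adjusted p = 9.27e-05). Of 5 measured markers of sensory ganglion neurons 0 passed the test (median -0.63). Their mean signal was 4.71 in naïve and 4.59 in isotype control mice, under the background level. Of 7 measured oligodendrocyte markers 2 fell and 1 rose (median -0.23), and of 8 astrocyte markers 4 fell and 3 rose (-0.33). In this comparison 26.6% of all genes fell and 24.2% rose, so that the oligodendrocyte falls were near the share of all genes.

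The genes whose pattern over the 17 arrays lay closest to each called peptide gene were sought among the 11831 genes averaging 7 or more in log2 signal, by the root mean square difference of signals centred on their own mean. Sst lay closest to Scg2 (0.0857 log2 units), then Lin7a (0.124) and Kcnn2 (0.126). Nts lay closest to Syt1, a calcium sensor of synaptic vesicles (0.126), and Penk to Ank3, which organises the axon initial segment (0.0988). Cck lay closest to Oprl1, the nociceptin receptor (0.150), Npy to Hoxb5 (0.165), Grp to Cdh8 (0.170) and Vip to Glra2, a glycine receptor subunit (0.265). Sst was the next closest gene to Grp (0.178) and Nts the next to Vip (0.276). The distance is a description of these arrays.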

How the data were processed

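RNA of 17 mouse cords was measured on Affymetrix mouse whole-genome arrays. The authors made the deposited intensity values with MAS5.0 and global scaling, per array and on a linear scale, and the submitters' processing notes also name affy. The affy version is not given in the sources used here, and the trimmed mean signal was 500 in every array of the deposited table. The log2 of each signal was used as it stood, without an offset or a filter on dim probe sets. Probe sets were named through the platform annotation, leaving out 932 with several genes and 9211 with no gene. Groups were compared with limma 3.58.1 in R 4.3.3 (a linear model of the 3 groups with moderated variances and no block), with Benjamini-Hochberg adjustment over 34958 probe sets. Counts over lists used the probe set with the highest mean of each gene. The number of arrays limits the precision, and nothing in the sources used here pairs mice across groups. The gene choice and the lists were made with earlier results of these data known. The rule for names took from each list the 3 genes with the smallest p in isotype control against naïve mice and the 2 with the smallest between the antibody groups, and all receptors and processing genes. It was applied in full to other peptides and to inhibitory and excitatory neuron markers, and other marker lists are given mainly by counts and means. Of the listed genes, those with no single-gene probe set here were not analysed here. The fit was tested on simulated data. Alternatives were another offset, quantile and median scaling, subtraction of the neuron marker mean, a filter on dim probe sets, other probe set rules, fits of 2 groups alone, array weights, another variance model, a replicate block and each array left out. Python 3.11.15 and matplotlib 3.10.9 drew the figures.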

Additional observations from a re-analysis of the deposited data

Results flagged for a closer look

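In the dim probe set of Tac1, single arrays stood apart from their group by Dixon's test. Isotype control replicate 2 had a log2 signal of 1.61, where the nearest array of the group had 4.76, and anti-RGMa replicate 5 had 2.87, where the nearest had 4.56. Of 33 groups of values searched these were the 2 found, and chance alone flags about 5% of groups. Both arrays lay within the range of their groups in the leading probe set of Tac1, at 10.40 and 10.79, although 10.40 was the lowest isotype control value there.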

How the results depend on the processing

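The 7 falls in isotype control against naïve mice held under 10 of the 11 other settings and with each of the 17 arrays left out. The exception was subtraction of the neuron marker mean, under which Cck held. Quantile normalization and centring on the array median moved the median of all probe sets to -0.14 and -0.20 in this comparison and to -0.12 and -0.17 in anti-RGMa against naïve mice, from -0.06 in each.

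After subtraction of the neuron mean, signs turned for Tac1 (0.73, dim probe set 0.23), Penk (0.33) and Gal (0.64) in isotype control against naïve mice and for Penk (0.19) and Vip (0.070) in anti-RGMa against naïve mice. Between the antibody groups they turned for Tac1 (-0.14, dim probe set -0.24), Penk (-0.14), Pdyn (-0.38), Npy (-0.021), Sst (-0.05), Cck (-0.20), Grp (-0.20) and Gal (-0.066), and 4 probe sets were called in place of 0. The median of all probe sets there was -0.45 after the subtraction. Values that were near 0 also turned under other settings. Pdyn in isotype control against naïve mice went to -0.10 with quantile normalization and -0.091 with centring on the median. In anti-RGMa against naïve mice Gal went to -0.066 and -0.10 with these, and Tac1 to -0.093 with centring and -0.28 when its probe sets were averaged. Without anti-RGMa replicates 1 and 6 (chosen after seeing the data) Tac1 was at -0.05 and Gal at -0.11 there. The correlation of Pdyn with the neuron mean was -0.034 when centred on group means.

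With each array left out in turn, Pdyn ran from -0.15 to 0.23 in isotype control against naïve mice and from -0.11 to 0.27 between the antibody groups, and its correlation from -0.53 to 0.47. In anti-RGMa against naïve mice Tac1 ran from -0.13 to 0.11 and Gal from -0.13 to 0.10, and between the antibody groups the dim probe set of Tac1 from -0.46 to 0.55. Peptide genes called between the antibody groups ran from 0 to 1 (Nts, without anti-RGMa replicate 6), and those past the threshold of the study from 0 (without isotype control replicate 1) to 3 (without anti-RGMa replicate 6), against 2. All probe sets called there ran from 0 to 1561 (without anti-RGMa replicate 6), and those past the study's threshold from 1039 to 2319, against 1388.

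With 1 probe set per gene, which leaves 18194 tests, 9426 (highest) or 8357 (mean) were called in isotype control against naïve mice in place of 16670, and 7621 or 6714 in anti-RGMa against naïve mice in place of 13253. Between the antibody groups these rules called 1 each, as did the trend and robust variance, and without anti-RGMa replicates 1 and 6 the fit called 12. Past the study's threshold were then 817 probe sets with an offset of 32, 7000 with the neuron mean subtracted, 586 above a mean of 7, 716 or 699 with 1 probe set per gene and 2249 without anti-RGMa replicates 1 and 6. Of the peptide genes 1 was past it with the offset and 0 with the neuron mean subtracted. The causes were not tested.

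Same-numbered mice did not deviate together (correlations of -0.045 to 0.041), so the numbers were not taken as pairs. With a replicate block 7, 5 and 0 peptide genes were called in the 3 comparisons, Penk being lost in anti-RGMa against naïve mice (adjusted p = 0.0509), and 4 probe sets were called between the antibody groups.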
